A study of Mus musculus with 6 samples.

Results

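The genes described here are 34 genes of the ATF4 response and of transfer RNA charging, read from RNA-seq of ID8, a cell line derived from mouse ovarian surface epithelium and used as a model of ovarian cancer. They were chosen by symbol: 7 stress regulators, 6 enzymes of amino acid and one-carbon synthesis, 5 amino acid transporter genes and 16 cytosolic aminoacyl-tRNA synthetases. All 34 were among the 53465 genes of the count table, all had 10 or more counts in at least 3 libraries, as 8187 genes of the table did, and all were among the 8200 genes tested. The libraries formed 2 groups of 3, labelled WT and KO, with replicates numbered 4 to 6 in each. The series describes stable lines made with a control guide (sgNC) and with a guide against Nat10 (sgNat10). The sgNC line was taken to be WT, and the sgNat10 line, which the design text calls a knockdown, to be KO. No drug or other treatment is named for either line, and the labels do not say whether a line is 1 clone. Guide and line cannot be told apart in this design. The study asked which transcripts, above all those of the DNA damage response, change when NAT10, the enzyme that places N4-acetylcytidine on RNA, is depleted.

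ATF4 is a transcription factor of the integrated stress response. Kinases that sense lack of amino acids, misfolded protein in the endoplasmic reticulum, double-stranded RNA or lack of haem phosphorylate the initiation factor eIF2, which lowers protein synthesis in general and raises translation of the Atf4 message through its upstream reading frames. ATF4 pairs with C/EBP family proteins on C/EBP-ATF elements and drives genes that make, import and charge amino acids onto tRNA. Part of the control of ATF4 is translational, so levels of Atf4 mRNA do not give levels of the protein.

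A C/EBP-ATF element, searched as TGATGNAA on both strands with overlapping matches kept, was present in the promoters of 9 of the 26 members that have a promoter in the RefSeq table (34.6%). Among all 27025 genes with a promoter in that table (build GRCm38.p6, 250 bases before to 50 after a start), 4.51% held one. The 9 were 5 of 10 synthetases with an entry, the regulators Trib3 and Chac1, the enzyme Asns and the transporter Slc7a11. The other 17 members with an entry held none. The stretches below, 30 bases each, show elements of the 9, since each role has at least 1 member among them, and the element is in capitals. They are printed 5′ to 3′ on the gene's strand.
Asns, chr6:7693214-7693243, minus strand: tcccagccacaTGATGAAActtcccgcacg
Slc7a11, chr3:50443652-50443681, minus strand: gcTGATGCAAacctggagaatTTGCATCAt
Chac1, chr2:119351038-119351067, plus strand: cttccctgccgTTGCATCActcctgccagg
Trib3, chr2:152344028-152344057, minus strand: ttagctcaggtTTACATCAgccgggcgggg
Aars, chr8:111033840-111033869, plus strand: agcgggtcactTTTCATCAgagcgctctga
Gars, chr6:55037960-55037989, plus strand: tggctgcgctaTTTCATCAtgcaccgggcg
Yars, chr4:129189895-129189924, plus strand: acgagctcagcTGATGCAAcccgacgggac
Iars, chr13:49682126-49682155, plus strand: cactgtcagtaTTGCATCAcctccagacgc
Tars, chr15:11399655-11399684, minus strand: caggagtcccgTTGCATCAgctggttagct
The stretch printed for Slc7a11 holds 2 elements in opposite orientation. Not every element found in the 9 promoters is printed. The GENCODE M21 annotation places the elements of Asns, Aars, Yars and Iars inside an exon of the gene. By the RefSeq starts, the element printed for Asns lies before the start and those printed for Aars, Yars and Iars just after it. The element of Trib3 also lies after its RefSeq start, but not inside an M21 exon of the gene. A match of letters is a description and not a measured binding site.

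Nat10 mRNA overlapped between the groups, at 102, 64.0 and 169 CPM (read counts brought to a common library size by the TMM method) in WT and 123, 57.0 and 138 CPM in KO replicates 4 to 6. The log2 fold change was -0.07 ± 0.48 (SE), so this mRNA does not check the labels, and KO below stands for libraries labelled KO. Total counts ran from 1687466 to 2148715 in WT and from 2234305 to 3126208 in KO libraries, so that 1 count was worth 0.320 to 0.593 CPM before scaling. Whether replicates came from separate cultures is not said in the labels, and the spread behind each p-value may therefore be technical. Of 11 markers of ovarian surface and mesothelial epithelium, Krt8, Krt18, Krt19, Msln, Wt1 and Upk3b were counted in every library (Krt8 with a single count in KO replicate 4), while Epcam and Pax8 had no count. Their summed level was 5890 to 6340 CPM in WT and 4180 to 4830 CPM in KO libraries, but they did not move together. Krt19, the largest part of the sum, had means of 4202 and 2223 CPM (edgeR adjusted p = 0.0044). Krt18 was lower too, with means of 515 and 155 CPM (edgeR adjusted p = 0.0195). Krt8 was lower without overlap but was not called, and Krt7, Lrrn4 and Cdh1 had counts in WT libraries only. Msln, which encodes mesothelin, went the other way, with means of 789 and 1636 CPM (edgeR adjusted p = 0.0145). Wt1 and Upk3b overlapped between the groups. Of 7 leukocyte and 5 endothelial markers, 6 and 4 had at most 3 counts in any library. Among 5 fibroblast markers, Dcn made up nearly all of a sum of 666 to 737 CPM in WT and 951 to 1320 CPM in KO libraries, and Pdgfrb, Lum and Thy1 had at most 3 counts in any library. What these shifts contribute to the values below was not tested.

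None of the 34 genes passed an adjusted p of 0.05 in edgeR's quasi-likelihood test, in which 0.402% of all tested genes passed, 0.220% lower and 0.183% higher in KO libraries. Those were 18 and 15 genes, and scaling by library totals made them 16 and 27. The genes closest to it were Ddit4, Asns and Atf4, ranked 42, 50 and 67 by p among 8200, all lower in KO libraries. DESeq2 called exactly these 3 of the 34 as lower and none as higher, where it called 2.66% of all the genes to which it gave an adjusted p, 1.44% lower and 1.22% higher. The limma-voom test called 1, Asns, where it called 0.524% of all genes, 0.268% lower and 0.256% higher. At an unadjusted edgeR p under 0.05 there were 7 members, all lower, against 6.49% of all genes, 3.79% lower and 2.70% higher. In 9 members every KO library lay below every WT library and in none did every KO library lie above, where the shares among all genes were 7.93% and 6.94%, 14.9% in all. Such separation is more frequent in abundant genes: for genes of at least 100 CPM on average the shares were 13.0% and 9.60%, and among the 25 members of that level it was seen in 8 and 0. The median log2 fold change was -0.24 over the 34 genes and -0.02 over all genes, and 23 of the 34 estimates (67.6%) lay below 0 against 51.0% of all genes.

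**Figure D1:**
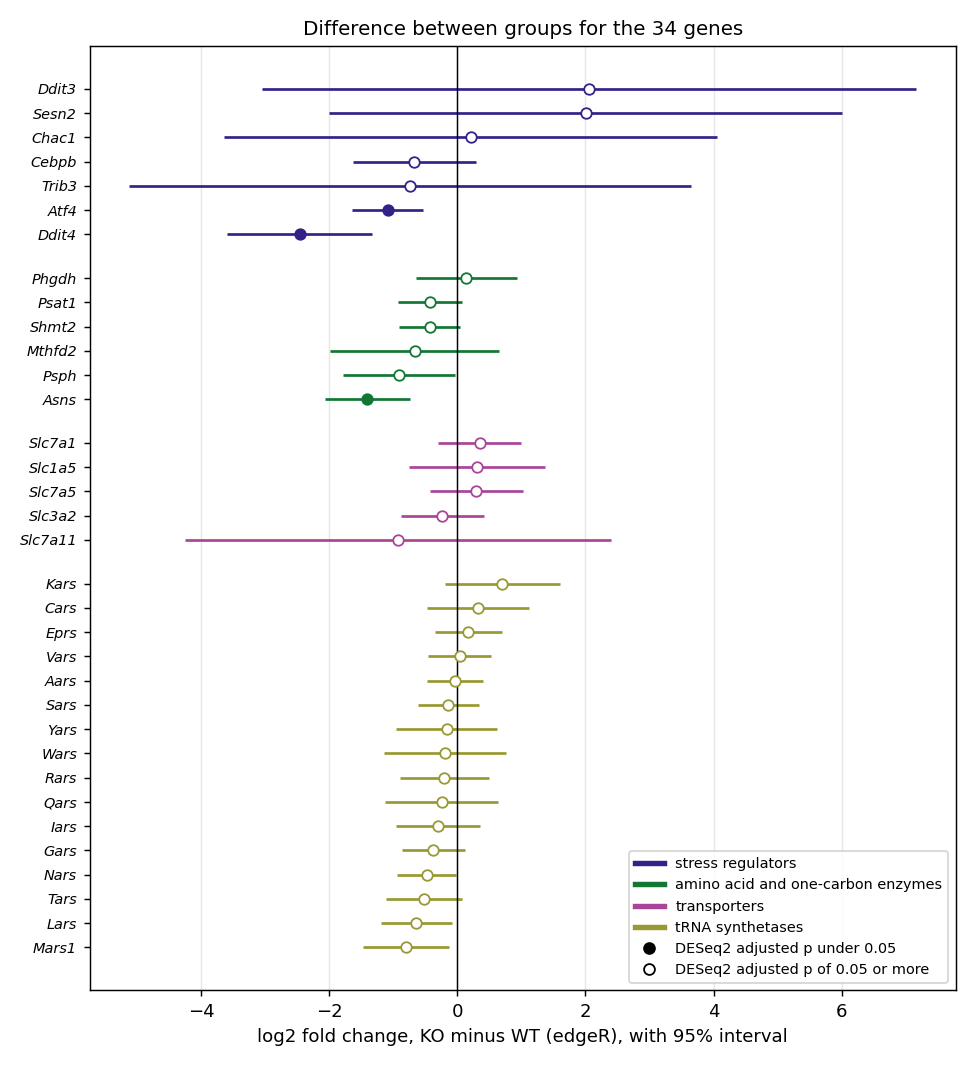
Log2 fold change of each of the 34 genes, KO minus WT, by edgeR with its 95% interval (horizontal lines), grouped by role. Filled points mark an adjusted p under 0.05 in DESeq2. The filled points are Atf4, Ddit4 and Asns, at -1.09, -2.47 and -1.41, while most synthetases lie close to 0.

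Among the regulators, Atf4 and Ddit4 were lower in each KO library, and the groups overlapped in the others. Atf4 (chr15:80255184-80257541, plus strand) stood at 464, 362 and 317 CPM in WT and 176, 188 and 173 CPM in KO replicates 4 to 6. The KO libraries lay close together and well under the lowest WT library. The log2 fold change was -1.09 ± 0.26 (SE, 95% interval -1.65 to -0.53), or 2.13-fold lower, with an adjusted p of 0.11 in edgeR and 0.000622 in DESeq2. It ran from -1.21 to -0.93 with 1 library left out. Its exons are shared with no other annotated gene, and no other transcript matched it at 95% identity over 200 bases.

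Ddit4 (chr10:59949669-59951834, minus strand) encodes REDD1, an inhibitor of mTORC1 that is induced by ATF4, by low oxygen and by glucocorticoids. It had 169, 276 and 173 counts in WT and 48, 47 and 73 counts in KO replicates 4 to 6. The groups did not overlap after scaling either, with means of 114 ± 21.1 CPM for WT and 20.5 ± 1.99 CPM for KO libraries (SD, n = 3). The log2 fold change was -2.47 ± 0.53 (SE), or 5.53-fold lower, with an interval from -3.60 to -1.34. The adjusted p was 0.0646 in edgeR, 1.37e-05 in DESeq2 and 0.216 in limma-voom. With 1 library left out the estimate stayed between -2.55 and -2.30, and edgeR's adjusted p was between 0.151 and 0.545.

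Ddit3, which encodes the stress factor CHOP, had 27, 1 and 0 counts in WT and 94, 0 and 110 counts in KO replicates 4 to 6. KO replicate 5 thus had none while the other KO libraries were the highest of all, and the interval of its log2 fold change, -3.05 to 7.17, gave no direction. The end of Ddit3 overlaps the end of Mars1 on the opposite strand of chromosome 10, and whether reads were counted by strand was not given in the sources used. Cebpb, a C/EBP partner of ATF4, stood at 153, 118 and 94.8 CPM in WT and 47.6, 112 and 70.4 CPM in KO libraries, and the groups overlapped (log2 fold change -0.67 ± 0.45, SE). Exons of other genes overlap 20.7% of the Cebpb exons, and it matches a transcript of Tmem189 over 320 bases at 99.4% identity. Sesn2, a stress-induced leucine sensor that restrains mTORC1, Trib3, a pseudokinase that feeds back on ATF4, and Chac1, which degrades glutathione, had mean levels under 50 CPM with overlapping groups. The Sesn2 counts were 26, 12 and 0 in WT and 22, 69 and 160 in KO libraries. Trib3 ran from 1 to 92 counts in WT and from 0 to 71 in KO libraries, and Chac1 from 7 to 48 and from 4 to 86. The lower limit of the interval lay under -1 on the log2 scale for all 7 regulators.

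**Figure D2:**
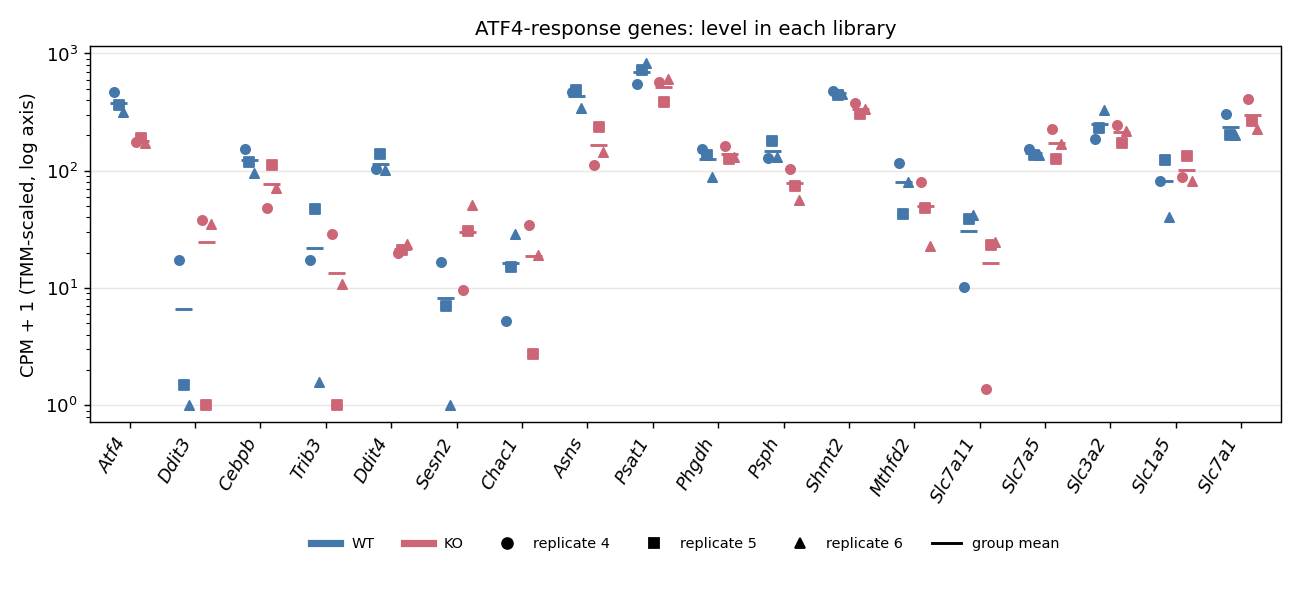
Level of the 18 genes that are not synthetases in each library, as CPM + 1 on a log axis, WT in blue and KO in red, with 1 marker shape per replicate number and a bar at the group mean. Atf4, Ddit4, Asns, Psph and Shmt2 show groups that do not overlap, and Ddit3, Trib3, Sesn2 and Slc7a11 each have a library at 0 or 1 count.

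Among the enzymes, Asns was lower in each KO library, with smaller differences in Psph and Shmt2. Asns (chr6:7675169-7693254, minus strand) encodes asparagine synthetase, which makes asparagine from aspartate and glutamine. It stood at 472, 492 and 340 CPM in WT and 112, 237 and 143 CPM in KO replicates 4 to 6, with KO replicate 5 the nearest to WT. The log2 fold change was -1.41 ± 0.31 (SE, interval -2.07 to -0.75), or 2.65-fold lower. Its adjusted p was 0.0693 in edgeR, 0.000287 in DESeq2 and 0.0169 in limma-voom. Without KO replicate 5 the estimate was -1.76 and edgeR called the gene (adjusted p = 0.0376); with any other library left out it did not, with adjusted p-values from 0.153 to 0.46.

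Psph, the phosphatase of the last step of serine synthesis, stood at 127, 179 and 129 CPM in WT and 103, 73.7 and 54.9 CPM in KO libraries. The groups did not overlap and the log2 fold change was -0.91 ± 0.41 (SE, edgeR adjusted p = 0.713). Exons of other genes overlap 10.4% of its exons, and it shares 255 identical bases with a transcript of Cct6a. Shmt2, the mitochondrial serine hydroxymethyltransferase, stood at 482, 441 and 446 CPM in WT and 376, 304 and 332 CPM in KO libraries, again without overlap, a log2 fold change of -0.44 ± 0.22 (SE, edgeR adjusted p = 0.854). The other steps of serine synthesis did not separate: Psat1, the aminotransferase, ran from 544 to 828 CPM in WT and from 388 to 605 CPM in KO libraries. Phgdh, the first enzyme, ran from 87.9 to 154 and from 124 to 163 CPM. It matches transcripts of other genes, such as Gm7901 over 1597 bases at 98.7% identity, so some of its reads may not be assigned with certainty. Mthfd2, the mitochondrial folate enzyme next to Shmt2, ran from 41.5 to 115 and from 22.0 to 79.2 CPM. The 6 enzymes summed to 1895, 2014 and 1910 CPM in WT and 1400, 1175 and 1286 CPM in KO libraries, a sum to which Psat1, Shmt2 and Asns contribute most.

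The transporter genes overlapped between the groups throughout. Slc7a1, the cationic amino acid transporter, stood at 303, 200.4 and 202 CPM in WT and 410, 263 and 228 CPM in KO libraries. The subunits of the LAT1 exchanger of large neutral amino acids had estimates of opposite sign. Slc7a5, its transport subunit, stood at 151, 136 and 136 CPM in WT and 225, 126 and 169 CPM in KO libraries (0.30 ± 0.34, log2 fold change and SE). Slc3a2, its heavy chain, stood at 187, 229 and 331 CPM in WT and 245, 172 and 217 CPM in KO libraries (-0.24 ± 0.30), a sign that turned without WT replicate 6. Slc1a5, a glutamine transporter, ran from 39.3 to 122 CPM in WT and from 80.4 to 134 CPM in KO libraries. Slc7a11, the cystine importer xCT, had 15, 76 and 71 counts in WT and 1, 52 and 76 counts in KO libraries. Part of an annotated Slc7a11 transcript matches alpha-tubulin genes such as Tuba1c over 373 bases, so some of its reads may not be assigned with certainty. None of the 5 had an unadjusted p under 0.05. The intervals of Slc3a2 and Slc7a1 lay within 2-fold in either direction and the other 3 did not.

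The 16 cytosolic synthetases, each of which charges a tRNA with its amino acid, showed small differences. None was called by edgeR, DESeq2 or limma-voom. At an unadjusted edgeR p under 0.05 there were 3 of the 16, all lower, against 3.79% of all genes lower. Of the 16 estimates 12 lay below 0, against 51.0% of all genes. Their median log2 fold change was -0.20, but -0.09 with library totals, -0.10 without KO replicate 5 and -0.30 without WT replicate 6. The largest estimates were -0.81 for Mars1 and 0.70 for Kars. For 9 of the 16 the 95% interval lay within 2-fold in either direction. Mars1 (named Mars in GENCODE M21), the methionyl-tRNA synthetase, stood at 263, 212 and 230 CPM in WT and 131, 100.2 and 171 CPM in KO replicates 4 to 6. Its log2 fold change was -0.81 ± 0.32 (SE, edgeR adjusted p = 0.565). Lars, for leucine, stood at 298, 403 and 359 CPM in WT and 228, 259 and 191 CPM in KO libraries, with a log2 fold change of -0.65 ± 0.26 (SE, edgeR adjusted p = 0.58). Nars, for asparagine, stood at 597, 582 and 501 CPM in WT and 375, 368 and 458 CPM in KO libraries, with a log2 fold change of -0.48 ± 0.21 (SE, edgeR adjusted p = 0.697). In these 3 and in Gars, for glycine (465 to 622 CPM in WT, 318 to 454 CPM in KO libraries), the groups did not overlap. Such separation with KO lower was seen in 7.93% of all genes and in 13.0% of genes of at least 100 CPM.

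Aars, for alanine, had the highest mean CPM of the 34 and groups that overlapped. It stood at 707, 735 and 705 CPM in WT and 739, 532 and 818 CPM in KO libraries, with an interval of -0.48 to 0.40 on the log2 scale. Vars for valine, at 381, 330 and 433 CPM in WT and 403, 437 and 333 CPM in KO libraries, had an interval of -0.46 to 0.53. Sars, which charges serine tRNAs, had an interval of -0.61 to 0.33. Kars, for lysine, stood at 55.3, 193 and 232 CPM in WT and 275, 288 and 220 CPM in KO replicates 4 to 6, and the groups overlapped. WT replicate 4 had 91 counts of Kars against 387 and 402 in the other WT libraries. The Kars log2 fold change of 0.70 became 0.30 without WT replicate 4. Eprs, the fused enzyme for glutamate and proline, was high in KO replicates 4 and 6 (751 and 867 CPM) and lowest of all libraries in KO replicate 5 (424 CPM). The remaining synthetases, Wars, Yars, Iars, Tars, Cars, Qars and Rars, had overlapping groups and estimates between -0.52 for Tars and 0.32 for Cars. The multisynthetase complex gathers several synthetases on a scaffold. Its 7 subunits among the members (Eprs, Iars, Lars, Mars1, Qars, Rars and Kars) had a median of -0.25 and the 9 synthetases outside it a median of -0.17. The exons of Aars overlap those of other genes over 15.1% of their length.

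**Figure D3:**
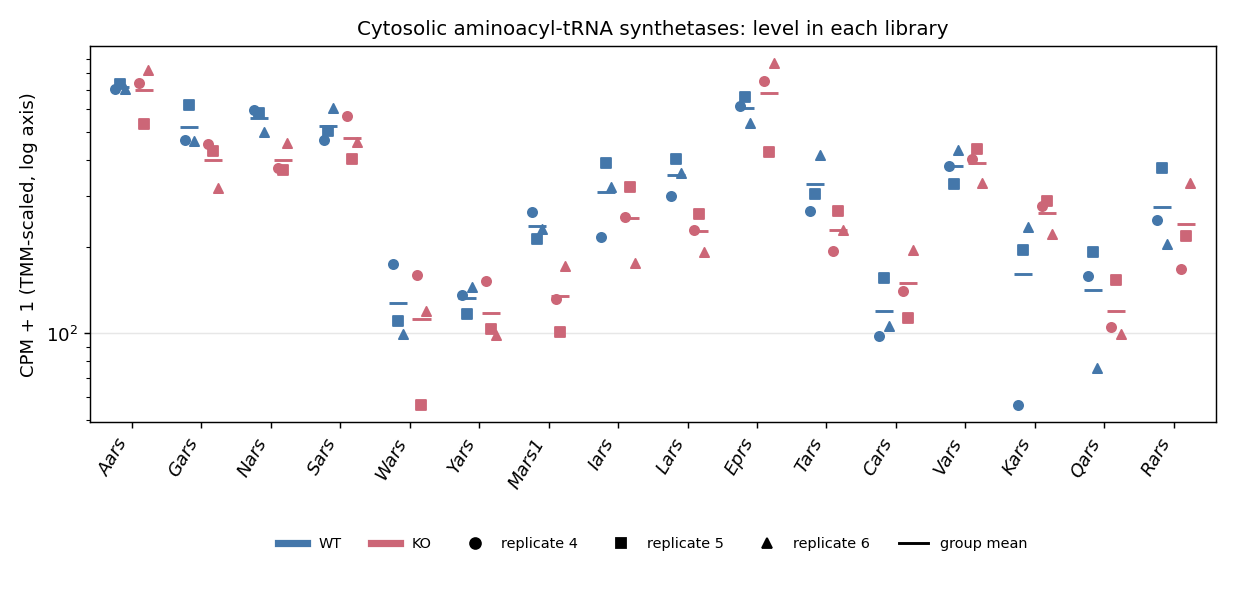
Level of the 16 cytosolic synthetases in each library, as CPM + 1 on a log axis, WT in blue and KO in red, with 1 marker shape per replicate number and a bar at the group mean. Only Gars, Nars, Mars1 and Lars have groups that do not overlap, each with KO below WT.

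Set against the promoter elements shown above, the 9 members with an element had a median log2 fold change of -0.38, and the 17 members with a promoter entry and no element -0.25. Of the 9, DESeq2 called 1, Asns. Atf4 and Ddit4, the other calls, have no such element in their windows, which says only that these letters are not in these stretches.

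Levels between genes were compared per kilobase of exon, from all annotated exons of a gene. The order below depends on these lengths, which can exceed the length of a single transcript. In WT the highest of the 34 were Gars, Psat1, Atf4 and Asns at 166, 164, 162 and 159 CPM per kilobase. These 4 values lie close together. In KO libraries Gars and Psat1 kept places 1 and 2 at 128 and 122 CPM per kilobase, while Atf4 stood in place 6 at 75.8 and Asns in place 10 at 59.9. Ddit4 stood in place 15 in WT and place 30 in KO libraries, at 64.7 and 11.7 CPM per kilobase. The lowest in WT were Sesn2, Slc7a11 and Ddit3 at 2.09, 2.11 and 3.29 CPM per kilobase.

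Other genes of the pathway were read from lists of related genes, and none of those tested was called by edgeR. Of 17 genes of eIF2, its kinases and their regulators, phosphatase subunits and exchange factor, 2 were higher and 1 lower at an unadjusted edgeR p under 0.05. Among all genes 2.70% were higher and 3.79% lower at that level. The groups separated with KO higher in 2 of the 17 and with KO lower in 1, against 6.94% and 7.93% of all genes. The list median was -0.18. Impact, an inhibitor of the amino acid sensing kinase GCN2, stood at 214, 175 and 204 CPM in WT and 412, 278 and 487 CPM in KO libraries. The groups did not overlap, and its log2 fold change was 0.99 ± 0.28 (SE, adjusted p = 0.247 in edgeR and 0.00577 in DESeq2). Eif2s2, the beta subunit of eIF2, stood at 337, 212 and 306 CPM in WT and 180, 54.8 and 132 CPM in KO libraries (edgeR adjusted p = 0.419). Eif2ak2, the kinase PKR, ran from 36.4 to 82.7 CPM in WT and from 79.1 to 158 CPM in KO libraries (edgeR adjusted p = 0.705).

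Of 36 further targets and partners of ATF4 or CHOP, 26 could be tested, with a median of -0.10 and none called by edgeR, DESeq2 or limma-voom. In 3 of the 26 every KO library lay above every WT library and in 1 below, against 6.94% and 7.93% of all genes. The 3 were Slc1a4, Atf3 and Tnfrsf10b, each with a WT library at 0 or 1 count. They passed the filter on low counts only with their KO libraries, so being tested and lying higher in KO are tied in them. At an unadjusted edgeR p under 0.05 there was 1, lower in KO libraries, against 3.79% of all genes lower. It was Slc38a2, the neutral amino acid transporter SNAT2, at 1137, 898 and 1047 CPM in WT and 839, 668 and 720.4 CPM in KO libraries. Sqstm1, the autophagy receptor p62, ran from 433 to 532 CPM in WT and from 298 to 439 CPM in KO libraries. Slc1a4, a neutral amino acid transporter, had 27, 1 and 24 counts in WT and 138, 138 and 107 counts in KO libraries, without overlap and with the opposite direction to Slc38a2 (edgeR adjusted p = 0.94). The largest estimates were those of Atf3 and Tnfrsf10b, at 3.70 and 3.61. Atf3 had 9, 0 and 1 counts in WT and 29, 39 and 168 counts in KO libraries. Tnfrsf10b had 0, 14 and 0 counts in WT and 48, 128 and 48 counts in KO libraries. Their intervals, -1.14 to 8.55 and -1.18 to 8.41 on the log2 scale, gave no direction. Fgf21, Gdf15 and Stc2, secreted products of the response, had no count in any library.

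Of 7 other cytosolic synthetase and scaffold genes none had an unadjusted p under 0.05. The smallest p-values were those of Farsb (-0.55 ± 0.37, log2 fold change and SE), Aimp2 (0.49 ± 0.47) and Farsa (-0.33 ± 0.44). The same held for the 18 tested of 20 mitochondrial synthetase genes, with Lars2 at 296, 217 and 235 CPM in WT and 151, 155 and 206 CPM in KO libraries (edgeR adjusted p = 0.904). Iars2 and Nars2 followed, at -0.76 ± 0.46 and 2.88 ± 2.10. Of 14 folate and one-carbon enzymes 12 were tested, with a median of 0.02, and none had an unadjusted p under 0.05. Mtr, the methionine synthase, and Tyms, the thymidylate synthase, had log2 fold changes of 0.50 ± 0.68 and 0.32 ± 0.50 (SE). In DESeq2 and limma-voom none of these 3 lists had a call.

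The calls of Ddit4, Asns and Atf4 differed between settings while their direction did not. The adjusted p crossed 0.05 in DESeq2 for the 3 genes. In edgeR it did so for Ddit4 and Asns when low genes were not removed (0.0271 and 0.00127) and when only genes with 10 counts in all 6 libraries were tested (0.0219 and 0.0072). These settings called 0.711% and 1.29% of the genes they tested. Of the 15 alternatives, Atf4 passed in DESeq2 only, and its lowest adjusted p in the edgeR fits was 0.0543.

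**Figure D4:**
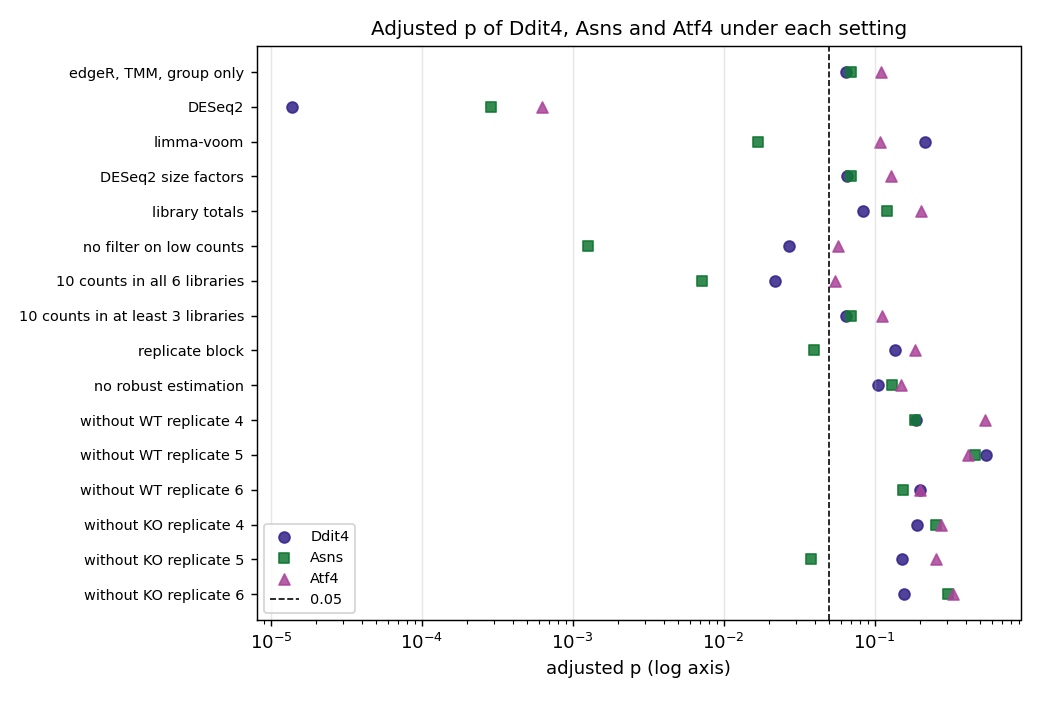
Adjusted p (log axis) of Ddit4, Asns and Atf4 under each of the 16 settings, from the edgeR fit reported above to the fits with 1 library left out. The dashed line marks 0.05. DESeq2 gave the lowest value for each gene, and the fits without WT replicate 5 gave the highest for Ddit4 and Asns.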

How the data were processed

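The authors deposited raw read counts of genes, 1 column for each library, with no scaling. The submitters' processing notes name fastp, the aligner HISAT2 2.0.5, the counter featureCounts 1.5.0-p3 and build mm10. Tool settings, strand mode included, were not given in the sources used. Columns numbered 1 to 3 were matched to replicates 4 to 6 through the labels.

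Genes were filtered with filterByExpr (minimum count 10), scaled with TMM and tested with edgeR 4.0.16 (robust quasi-likelihood fit, group as the only term, two-sided, Benjamini-Hochberg adjustment over 8200 genes, threshold 0.05) in R 4.3.3. DESeq2 1.42.0, limma-voom 3.58.1, other scalings and filters, the replicate block and leaving out each library were alternatives. The edgeR script was run on counts simulated from the fitted dispersion trend. That trend does not carry the spread of each single gene, so the run checks the code and not the calls. Symbols, coordinates and exon lengths came from GENCODE M21 (53274 of 53465 IDs matched), promoters from RefSeq, GRCm38.p6. Near-identical transcripts were sought with blastn 2.17.0.

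The members and gene lists were chosen with earlier results of these data known. By rule, per-library values were given for Atf4, Ddit3, members with an unadjusted edgeR p or a DESeq2 adjusted p under 0.05 and the 3 smallest p-values per role, and the 3 smallest per other list were named, apart from items that are not reported here. Other values, such as those of Sesn2, Trib3, Chac1, Aars, Vars, Kars, Atf3, Tnfrsf10b, Fgf21, Gdf15 and Stc2, were picked after they were seen.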

Additional observations from a re-analysis of the deposited data

How the results depend on the processing

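The number of the 34 genes called, 0 by edgeR with TMM scaling, was 3 in DESeq2, 1 in limma-voom, 2 without a filter on low counts, 2 with 10 counts required in all 6 libraries, 1 with the replicate block, and 0 to 1 with 1 library left out. Over all genes, 33 were called by edgeR, 236 by DESeq2, 91 without the filter, 59 with 10 counts in all 6 libraries and 15 without robust estimation. With 1 library left out the number was 6 to 29, being 6 without WT replicate 5 or 6, and 15, 20 and 18 when KO replicate 4, 5 or 6 was removed. Library totals gave 27 higher and 16 lower calls against 15 and 18 with TMM. The cause of these shifts was not tested. The median over the 34 genes, -0.24, was -0.13 with library totals, and -0.37 (KO replicate 4 removed) to -0.14 (KO replicate 5 removed) with 1 library left out. The median of all genes was 0.09 with library totals and -0.13 in limma-voom. Same-numbered libraries did not deviate together (r = -0.017, -0.003 and -0.007), so the block, under which 38 genes were called, tests no known pairing. It gave Asns an adjusted p of 0.0399 in edgeR and called no other of the 34.

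Ddit4, Asns and Atf4 kept their direction in all 15 alternatives. The sign turned in 11 members, never with an adjusted p under 0.99. For Trib3 it was 0.23 with the block and -2.04 to 0.56 with 1 library left out. For Chac1 it was -0.085 in limma-voom, -0.33 with the block and -0.62 to 0.95 with 1 left out. Aars was at 0.068 with library totals and -0.18 to 0.13 with 1 left out. The other ranges with 1 left out were -0.064 to 0.31 for Phgdh, -0.41 to 0.020 for Slc3a2, -0.025 to 0.73 for Slc1a5, -0.53 to 0.13 for Wars, -0.043 to 0.43 for Eprs, -0.058 to 0.14 for Vars, -0.55 to 0.032 for Qars and -0.52 to 0.084 for Rars. Nat10 was at 0.019 in limma-voom, 0.026 with library totals and -0.35 to 0.35 with 1 left out, and Mtr ran from -0.40 to 0.92. Members under 50 CPM had intervals that span several fold, so no difference was detected for them. The cause of this width was not tested.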
